A study of Mus musculus with 3 samples.

Results

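The genes described here mark dendritic cells, the blood cells that take up antigen and present it to T cells. There are 10 of them among the 28074 gene symbols of the deposited table: Irf8, Batf3, Zbtb46, Clec9a, Xcr1, Itgax, Cst3, Ccr7, Cd209a and Siglech. They were chosen by their known role as genes of conventional and plasmacytoid dendritic cells, with their levels in these same libraries already known, so the levels are given as a description and carry no test. All 10 have 1 row each in the table.

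RNA was sequenced from the spleens of 3 moribund mice with acute myeloid leukemia. All 3 mice form a single group, labelled miR196b-/-Dnmt3afl/fl,Flt3ITD/ITD,Mx1Cre by genotype and Dnmt3a+/- by title, so the labels do not settle how many Dnmt3a copies were lost. Each leukemia therefore lacks miR-196b, a microRNA of the Hoxa cluster, carries a lesion of the DNA methyltransferase gene Dnmt3a, and carries internal tandem duplications of Flt3 on both chromosomes. Mx1-Cre, the recombinase used to cut the floxed Dnmt3a alleles, is driven by an interferon-inducible promoter that is active in blood cells and also in other tissues. Red cells were lysed and cells with c-Kit, a receptor of immature blood cells, were enriched on magnetic beads, a step that can leave other host cells behind. The ages of the mice are not given. Leukemias that keep miR-196b were not analysed here, so nothing below compares genotypes.

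Dendritic cells arise from progenitors that bear the receptor Flt3. Irf8, with Batf3, is needed for type 1 conventional dendritic cells (cDC1), which carry Clec9a and Xcr1 and present antigen from dead cells to CD8 T cells. Type 2 conventional cells (cDC2) depend more on Irf4 and carry Sirpa, and the mouse gene Cd209a is used as a marker of some of them and of cells that arise from monocytes. Plasmacytoid cells (pDC) depend on Tcf4, carry Siglech and make type I interferon.

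Values are in TPM, a transcript abundance scaled to transcript length and to the library total, so that levels can be compared between genes. Kit had 139, 149 and 133 TPM in mice 1, 2 and 3, in the order of the sample records. Mpo, a granule enzyme of myeloid progenitors, had 1081, 864 and 1632 TPM, and Cd34, a progenitor marker, 202, 141 and 137 TPM, so markers of the labelled cells were present in each library. No row for miR-196b was analysed here, and its loss was not checked. Ptprc, the CD45 gene that nearly all leukocytes express, was listed at only 2.25, 3.09 and 2.40 TPM, so a low listed value does not by itself show that a transcript was scarce. The numbers of genes at 1 TPM or more were 15107, 15108 and 14976. TPM keeps no read depth, and the depth reached is unknown beyond the 30000000 reads planned per sample.

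The genes were abundant in the main, and they differed together between the mice. All 10 reached a mean of 1 TPM, against 54.1% of all symbols. On the log2(TPM + 1) scale the median of their mean levels was 6.15, against 4.18 over the 15181 genes with a mean of at least 1 TPM. All 10 were lowest in mouse 1, where 24.4% of those 15181 genes were lowest, and 8 of 10 were highest in mouse 2, where 31.1% were highest. Cd209a and Siglech, the other two, were highest in mouse 3.

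The stretches upstream of 4 of these genes are shown first, because Clec9a, Xcr1 and Itgax shared an order of mice that Cd209a did not. Each runs 5′ to 3′ on the gene's strand, from 250 bases before to 50 bases after a RefSeq start site (GRCm38.p6, the build also called mm10). Capitals mark matches to the motifs named after the sequences. Clec9a lies at chr6:129408862-129424763 on the plus strand and its window at chr6:129408612-129408911. Xcr1 lies at chr9:123852315-123862029 on the minus strand and its window at chr9:123861980-123862279. Itgax lies at chr7:128129547-128150657 on the plus strand and its window at chr7:128129300-128129599. Cd209a lies at chr8:3743397-3748984 on the minus strand and its window at chr8:3748935-3749234. The gene positions are those of GENCODE M21.
Clec9a: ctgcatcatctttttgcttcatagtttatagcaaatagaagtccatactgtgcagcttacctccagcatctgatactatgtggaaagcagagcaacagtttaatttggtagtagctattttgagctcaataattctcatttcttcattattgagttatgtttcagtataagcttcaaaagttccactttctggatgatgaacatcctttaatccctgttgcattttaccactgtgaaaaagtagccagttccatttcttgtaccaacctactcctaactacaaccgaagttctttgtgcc
Xcr1: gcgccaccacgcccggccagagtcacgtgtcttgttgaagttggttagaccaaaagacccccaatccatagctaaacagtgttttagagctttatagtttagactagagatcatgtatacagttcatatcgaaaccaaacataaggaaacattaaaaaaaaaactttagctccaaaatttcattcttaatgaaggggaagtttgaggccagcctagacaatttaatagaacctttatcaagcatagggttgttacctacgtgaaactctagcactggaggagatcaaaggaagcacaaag
Itgax: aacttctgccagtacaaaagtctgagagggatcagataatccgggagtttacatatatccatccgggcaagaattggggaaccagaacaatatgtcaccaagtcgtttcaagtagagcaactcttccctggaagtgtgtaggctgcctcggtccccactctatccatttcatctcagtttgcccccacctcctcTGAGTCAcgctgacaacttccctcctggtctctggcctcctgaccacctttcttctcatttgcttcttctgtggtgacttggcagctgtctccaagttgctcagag
Cd209a: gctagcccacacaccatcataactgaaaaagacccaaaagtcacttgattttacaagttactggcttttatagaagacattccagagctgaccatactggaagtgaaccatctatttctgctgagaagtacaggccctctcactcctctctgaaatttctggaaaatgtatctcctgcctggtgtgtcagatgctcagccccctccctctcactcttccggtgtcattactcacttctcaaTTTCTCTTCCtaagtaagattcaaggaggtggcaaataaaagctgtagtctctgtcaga

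A search of both strands used 4 motifs: the AP-1 site TGANTCA, the ETS-IRF composite GGAANNGAAA, the tandem IRF half-sites GAAANNGAAA, and the IRF half-site joined to an AP-1 site, GAAATGANTCA, which contains the first motif. Of the 32851 RefSeq promoter windows of this length, 7.81%, 2.72%, 3.44% and 0.125% held them. Among these were 10 windows of 9 of the dendritic cell genes, of which 2, 1, 0 and 1 held them. The Itgax window held the AP-1 letters TGAGTCA from 56 to 50 bases before the start, written as positions -56 to -50. The Cd209a window held the ETS-IRF letters on the opposite strand, TTTCTCTTCC, from position -9 to the start base at position 0. The Clec9a and Xcr1 windows held none of the 4. A match describes letters in a window and does not show that a factor binds there. A link between the motifs and the order of mice was not tested.

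Among the transcription factors, Irf8 was by far the most abundant. It had 716, 1256 and 775 TPM in mice 1, 2 and 3, a mean of 915 ± 296 TPM (SD, n = 3). Mouse 2 stood alone, and mice 1 and 3 were within 1.08-fold of each other. Irf8 ranked 141 among all symbols. It is not specific to dendritic cells, since monocyte progenitors and B cells also use it. The gene lies at chr8:120736358-120756694.

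Batf3, the AP-1 family partner that keeps Irf8 active in cDC1, had 49.2, 80.5 and 55.7 TPM, a mean of 61.8 ± 16.5 TPM (SD, n = 3). It showed the same arrangement as Irf8, with mouse 2 high and mice 1 and 3 within 1.13-fold. Batf3 lies at chr1:191097847-191108945.

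Zbtb46, a zinc finger repressor that marks conventional dendritic cells and their committed precursors and is scarce in monocytes, had 56.7, 122 and 75.4 TPM, a mean of 84.6 ± 33.5 TPM (SD, n = 3). Mouse 2 was 2.13-fold above mouse 1 and 1.61-fold above mouse 3. Fold differences between mice are given on the TPM + 1 scale. Zbtb46 lies at chr2:181387762-181459426.

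The cDC1 receptors differed more between mice than Irf8 and Batf3. Clec9a, a lectin that binds actin exposed on dead cells, had 184, 415 and 273 TPM, a mean of 291 ± 116 TPM (SD, n = 3). Its level lay at percentile 97.4 of the 15181 genes. Mouse 2 was 2.25-fold above mouse 1, and mouse 3 lay between. In GENCODE M21 an exon of Clec1b on the same strand overlaps those of Clec9a, and how reads of the overlap were assigned is not known. Of the 10 genes it was the only 1 whose exons overlapped another gene's.

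Xcr1, the receptor for the chemokine XCL1 that T and NK cells secrete, had 26.1, 75.8 and 56.0 TPM, a mean of 52.6 ± 25.0 TPM (SD, n = 3). It differed 2.83-fold between mice 2 and 1 and 2.10-fold between mice 3 and 1. Here mouse 1 was the mouse that stood apart, and mouse 2 was 1.35-fold above mouse 3.

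Itgax encodes CD11c, an integrin chain of dendritic cells that some macrophages and NK cells also carry. It had 68.6, 155 and 104 TPM, a mean of 109 ± 43.6 TPM (SD, n = 3). Its differences were nearly those of Clec9a, at 2.24-fold between mice 2 and 1 and 1.49-fold between mice 2 and 3.

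Cst3, the cysteine protease inhibitor cystatin C, was the ninth most abundant symbol of the table (rank 9). It had 4791, 7364 and 5120 TPM, a mean of 5758 ± 1400 TPM (SD, n = 3), and was 1.54-fold higher in mouse 2 than in mouse 1. Cst3 is strongly expressed by dendritic cells but is made by most cell types. It took 81.0%, 77.3% and 78.6% of the summed TPM of the 10 genes, so the sum mostly reflects Cst3. The gene lies at chr2:148871722-148875692.

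Ccr7, the chemokine receptor that guides mature dendritic cells, and also naive T cells and B cells, to lymph nodes, had 10.5, 28.1 and 18.9 TPM. The mean was 19.2 ± 8.81 TPM (SD, n = 3), and mouse 2 was 2.53-fold above mouse 1. Ccr7 lies at chr11:99144196-99155077.

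Cd209a, the lectin also called DC-SIGN, had 7.13, 22.4 and 30.0 TPM, a mean of 19.9 ± 11.7 TPM (SD, n = 3). Its order of mice differed from that of the cDC1 genes, with mouse 3 highest and 3.82-fold above mouse 1. Mouse 2 stood at 0.756 times mouse 3. Its SD of 1.02 log2 units was the widest of the 10.

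Siglech, a sialic acid-binding lectin of plasmacytoid cells, was the lowest of the 10, at 3.05, 3.55 and 3.78 TPM, a mean of 3.46 ± 0.373 TPM (SD, n = 3). The mice were within 1.18-fold of each other, the smallest difference among the 10. Its level lay at percentile 18.8 of the 15181 genes. Siglech lies at chr7:55768178-55778925.

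**Figure D1:**
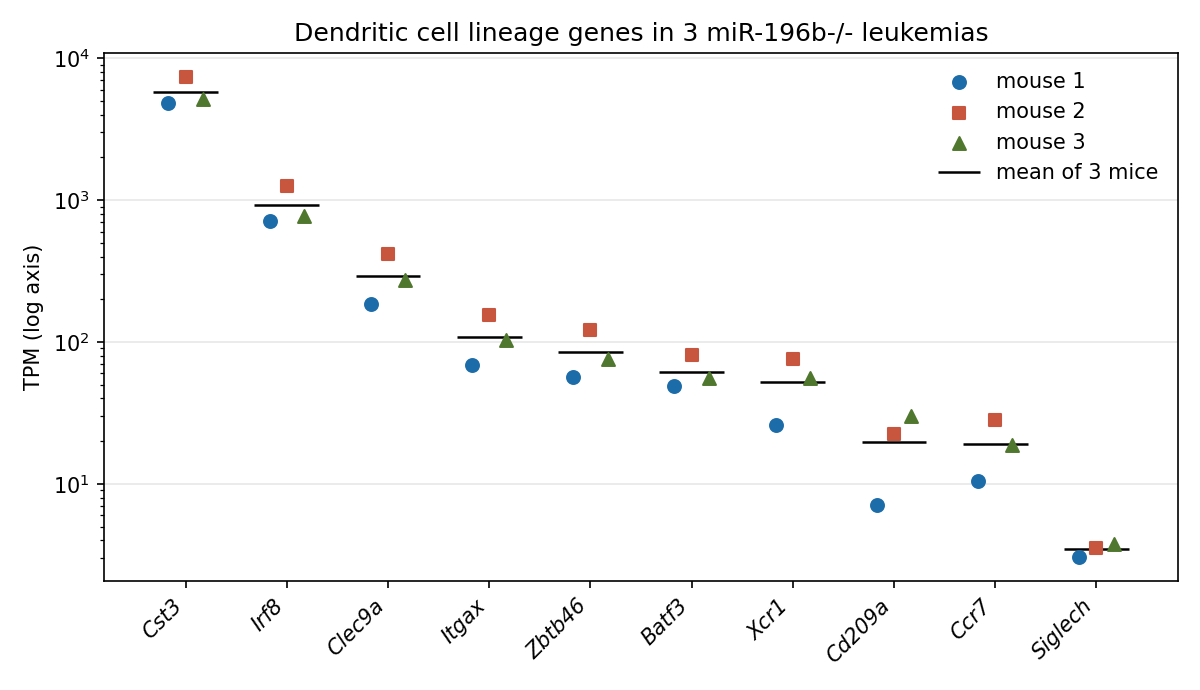
TPM of the 10 dendritic cell lineage genes (log axis) in mouse 1 (circles), mouse 2 (squares) and mouse 3 (triangles), with the mean of the 3 mice as a bar. Mouse 1 is lowest for all 10 genes, and mouse 2 is highest for all but Cd209a and Siglech.

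The order of mean levels was Cst3, Irf8, Clec9a, Itgax, Zbtb46, Batf3, Xcr1, Cd209a, Ccr7 and Siglech. The ranges over mice did not overlap between Cst3 and Irf8, Irf8 and Clec9a, Clec9a and Itgax, or Ccr7 and Siglech. They overlapped between each of the other neighbours in the order, so those levels did not differ beyond the spread between mice. Within each mouse, however, Itgax was above Zbtb46, Zbtb46 above Batf3, and Xcr1 above Cd209a. Batf3 was above Xcr1 in mice 1 and 2 and just below it in mouse 3. Ccr7 was above Cd209a in mice 1 and 2, so their order by mean held only in mouse 3.

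A difference of at least 2-fold between the highest and the lowest mouse was found for 6 of the 10 genes, against 8.57% of the 15181 genes. The 6 were Zbtb46, Itgax, Xcr1, Clec9a, Cd209a and Ccr7. The median SD of the 10 genes was 0.57 log2 units, against 0.21 over the 15181 genes. The count rests mostly on the contrast of mice 1 and 2. Between mice 2 and 3 alone, 0 of 10 reached 2-fold, where 2.90% of the 15181 genes did. Without mouse 2 the count was 2, Xcr1 and Cd209a, and without mouse 3 it was 6. For these pairs of mice the share over the 15181 genes was not computed, here or for the lists below. Whether such counts are unusual is therefore not known.

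Putting the libraries on a common upper quartile left all 10 genes lowest in mouse 1, where 36.0% of the 15181 genes were then lowest, and 8 of 10 highest in mouse 2, where 33.9% were highest. This scaling shifted mice 1, 2 and 3 by -0.08, 0.01 and 0.06 log2 units, and the range for Clec9a widened from 2.25-fold to 2.40-fold. The order mouse 1, mouse 3, mouse 2 was shared by 8 of 10 genes in the values as deposited, against 14.4% of the 15181 genes. The 3 mice have no order of their own, and these counts describe only how the libraries differed. In bulk RNA, fewer cells of a type and less RNA per cell cannot be told apart, and neither can dendritic cells among the enriched cells and leukemic cells that express dendritic genes.

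Ratios within a mouse do not depend on how the libraries were scaled. Itgax was 37.3%, 37.4% and 37.9% of Clec9a in mice 1, 2 and 3, a range of 1.02-fold. Zbtb46 was 30.8%, 29.4% and 27.6% of Clec9a, a range of 1.12-fold. These 3 genes thus kept nearly fixed proportions while each differed more than 2-fold in level. This was not particular to them. Among further cDC1 genes, the range against Clec9a was 1.11-fold for Tlr3, 1.26-fold for Cadm1, 1.40-fold for Naaa and 1.44-fold for Wdfy4. Among MHC class II genes, it was 1.26-fold for H2-Ab1 and 1.38-fold for Cd74. The range was not computed over all genes.

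Ccr7 was 5.72%, 6.78% and 6.93% of Clec9a. Xcr1 was 14.2%, 18.3% and 20.5%, lowest in mouse 1, whereas Batf3 was highest there, at 26.8%, 19.4% and 20.4%. Irf8 and Cst3 were also highest against Clec9a in mouse 1, with ranges of 1.37-fold and 1.47-fold.

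Cd209a departed most, at 3.87%, 5.41% and 11.0% of Clec9a, a range of 2.84-fold. Siglech was 1.66%, 0.855% and 1.38%. A range of 5.63-fold was found for S100a8, a neutrophil gene shown for scale.

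**Figure D2:**
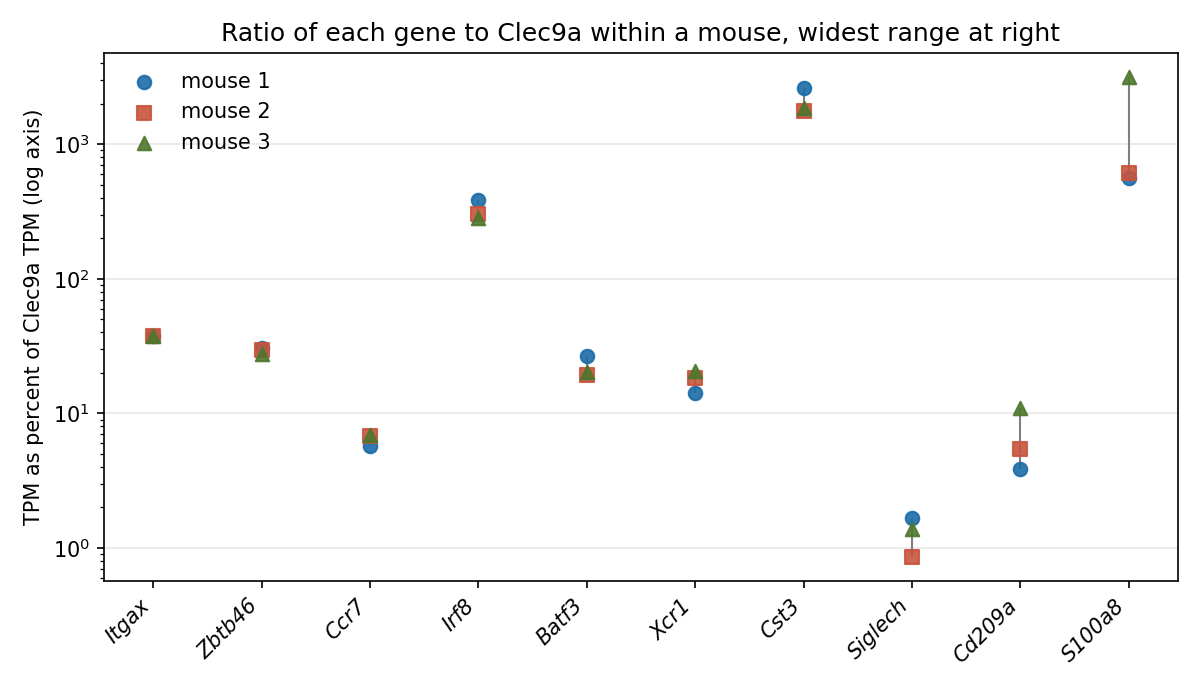
TPM of 9 dendritic cell lineage genes and of the neutrophil gene S100a8 as a percent of Clec9a in the same mouse (log axis), 1 point per mouse, ordered by the range over the 3 mice. Itgax and Zbtb46 hold nearly the same ratio in all 3 mice, while Cd209a spans 2.84-fold and S100a8 5.63-fold.

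Further genes of the cDC1 type were measured as a list of 14, none of them among the 10. All 14 reached a mean of 1 TPM, with a median level of 6.53 log2 units. Wdfy4, which cDC1 need to cross-present antigen, had 980.2, 1577 and 1013 TPM. Naaa, a lysosomal amidase enriched in cDC1, had 927, 1640 and 985 TPM. Cd24a, a surface protein of cDC1 and of many immature blood cells, had 587, 694 and 618 TPM.

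Of these 14 genes, 11 were lowest in mouse 1 and 13 highest in mouse 2, against 24.4% and 31.1% of the 15181 genes. Scaling to a common upper quartile left both counts as they were, against 36.0% and 33.9%. At least 2-fold differences were seen for 3, against 8.57%. Tlr3, a sensor of double-stranded RNA, had 62.7, 154 and 103 TPM, and Cadm1, an adhesion molecule, 39.0, 84.6 and 69.9 TPM. The third, Cd207, the lectin langerin, was highest in mouse 1 and lowest in mouse 3, with 59.3, 42.3 and 16.8 TPM. Leaving out a mouse gave 1 to 2 such genes.

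Genes of the cDC2 type had a lower median level than those of cDC1, with no single arrangement of mice. Of 12, 11 reached a mean of 1 TPM, and the median level was 4.54 log2 units. Of those 11, 6 were lowest in mouse 1, against 24.4% of the 15181 genes. After the upper quartiles were made equal it was 7, against 36.0%. Mouse 2 was highest for 4, against 31.1%, and mouse 3 for 5, against 20.3%. Clec12a, a lectin that many myeloid cells carry, had 120, 167 and 200.2 TPM. Notch2, a receptor that cDC2 need in the spleen, had 141, 186 and 124 TPM. Klf4, a factor of cDC2 and monocytes, had 89.0, 164 and 79.4 TPM. Itgam, the CD11b chain of cDC2, monocytes and neutrophils, had 13.4, 23.6 and 60.0 TPM, an order shared with Cd209a. Irf4 had 3.20, 7.87 and 7.08 TPM, far below Irf8 but in the same order of mice.

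Over all listed genes, the list of 14 further pDC genes had the lowest median level of the dendritic lists, 2.58 log2 units. That place rests on genes under 1 TPM. Only 11 of the 14 reached a mean of 1 TPM, and their median was 4.38 log2 units. The mature dendritic cell list, where all genes reached it, had 4.11. Of the 11 pDC genes, 10 were lowest in mouse 1, against 24.4% of the 15181 genes. The order of the cDC1 genes held for 5 and that of Cd209a for 5, against 14.4% and 9.93%. Tcf4, which pDC require and other blood cells also express, had 47.1, 47.8 and 49.5 TPM. Bst2, an interferon-inducible surface protein, had 39.5, 51.4 and 58.9 TPM. Irf7, the factor behind interferon production and itself interferon-inducible, had 12.8, 60.0 and 64.1 TPM. Cox6a2, Klk1 and Pacsin1, used as pDC markers, had means under 1 TPM.

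Genes of mature dendritic cells had a median level of 4.11 log2 units, and 13 of 13 reached a mean of 1 TPM. At least 2-fold differences were seen for 8 of 13, for 1 without mouse 1, for 4 without mouse 2 and for 8 without mouse 3. Socs2, a brake on cytokine signalling, had 190.3, 130 and 119 TPM, highest in mouse 1. Cd86, a T cell costimulator, had 104, 150 and 115 TPM. Cd83, a maturation marker, had 33.7, 165 and 111 TPM. Fscn1, an actin bundler of dendrites, had 15.9, 40.0 and 30.2 TPM, and Ccl22, a chemokine, 7.59, 23.7 and 18.8 TPM. The costimulatory receptor Cd40 had 8.69, 18.4 and 14.1 TPM, and the calcium channel subunit Cacnb3 7.11, 15.7 and 8.30 TPM. These genes other than Socs2 shared the order of Ccr7, as did 9 of the 13 in all, against 14.4% of the 15181 genes. Ccl17, another chemokine of dendritic cells, was highest in mouse 1 and lowest in mouse 3, at 98.9, 21.6 and 4.22 TPM, the reverse of the order of Cd209a.

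Genes that act in dendritic cell development were high and varied less between mice. All 16 reached a mean of 1 TPM, with a median level of 6.48 log2 units. Their median SD was 0.29 log2 units, still above the 0.21 of the 15181 genes. Of the 16, 5 were lowest in mouse 1, against 24.4% of the 15181 genes. With the upper quartiles made equal it was 8, against 36.0%. Mouse 2 was highest for 12 of the 16, against 31.1%. Id2, a repressor needed for cDC1, had 494, 569 and 382 TPM. Spi1, listed under its older symbol Sfpi1, encodes the factor PU.1 and had 185, 264 and 225 TPM, while Ikzf1, a lymphoid and dendritic factor, had 221, 227 and 216 TPM. Zeb2, which acts for pDC and cDC2 and against cDC1, had 48.4, 77.2 and 102 TPM, highest in mouse 3 as was Cd209a. Csf1r, the macrophage growth factor receptor, had 8.35, 15.6 and 24.8 TPM in the same order, and Gfi1, a neutrophil factor, had 33.4, 15.8 and 25.3 TPM.

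The MHC class II list, whose genes dendritic cells share with B cells and activated macrophages, had the same arrangement of mice as most cDC1 genes. All 11 were highest in mouse 2, against 31.1% of the 15181 genes. In the values as deposited 9 were lowest in mouse 1, against 24.4%. Once the upper quartiles were made equal it was 11 of 11, against 36.0%. Cd74, the invariant chain, had 6391, 10438 and 7189 TPM. The class II chains H2-Ab1 and H2-Aa had 3285, 5886 and 4057 TPM and 2867, 4957 and 3359 TPM. At least 2-fold differences were seen for 3 of the 11, against 8.57% of the 15181 genes. H2-Oa and H2-Ob, which encode H2-O, an inhibitor of peptide loading, had 17.3, 48.9 and 45.4 TPM and 66.7, 149 and 121 TPM. The third, Ciita, the master activator of these genes, had 68.2, 157 and 112 TPM, close to Itgax in each mouse.

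**Figure D3:**
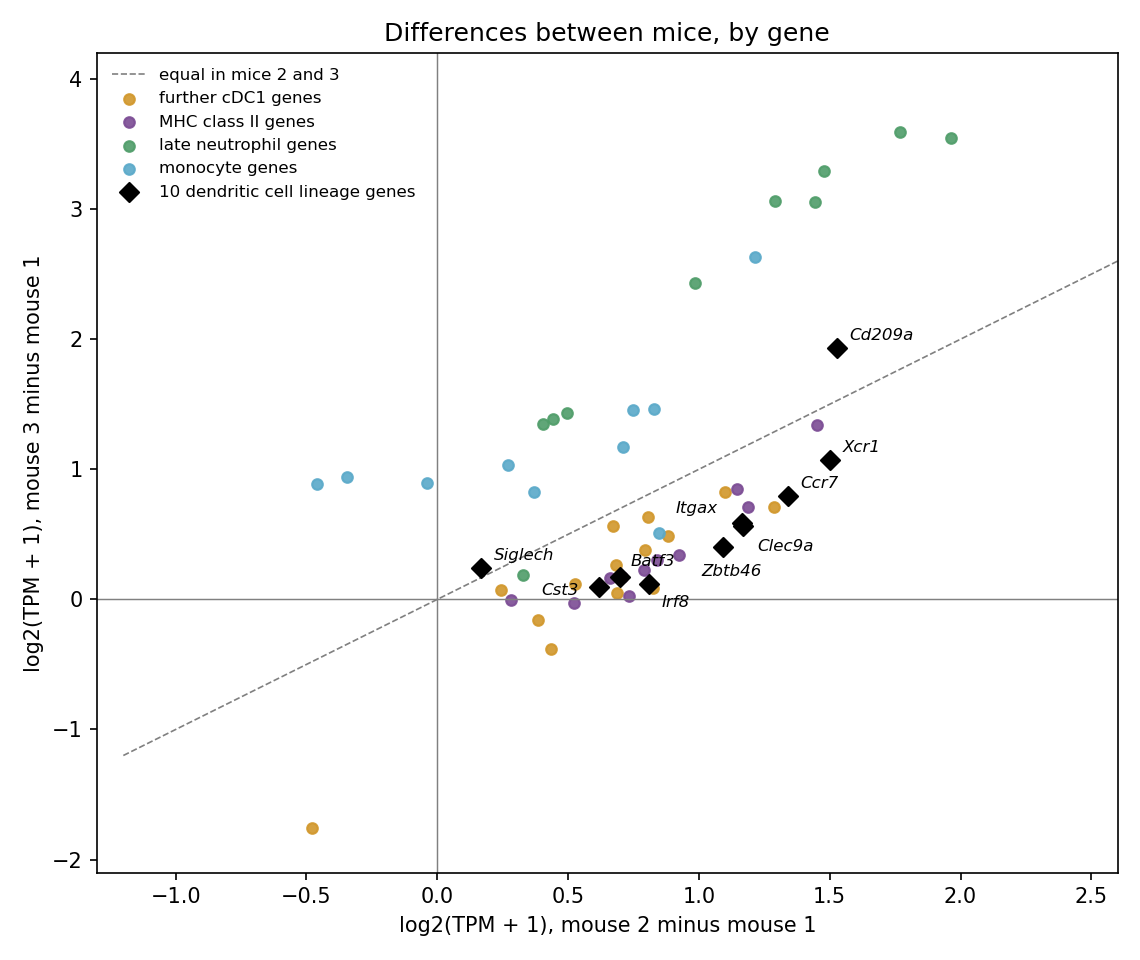
Difference of each gene in log2(TPM + 1) between mouse 2 and mouse 1 (horizontal) and between mouse 3 and mouse 1 (vertical), for the 10 dendritic cell lineage genes (diamonds, named), further cDC1 genes, MHC class II genes, late neutrophil genes and monocyte genes. Points below the dashed line were higher in mouse 2 than in mouse 3. Of the 10 genes only Cd209a and Siglech lie above it, on the side of 9 of 10 late neutrophil genes. Siglech lies nearly on the line, at -0.07 log2 units for mouse 2 minus mouse 3.

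Markers of other cells were read beside these results. Late neutrophil genes were highest in mouse 3 for 9 of 10 genes and lowest in mouse 1 for all 10, against 20.3% and 24.4% of the 15181 genes. Their summed levels were 2500, 6495 and 21525 TPM, and S100a8 had 1034, 2529 and 8646 TPM. Monocyte genes were highest in mouse 3 for 8 of the 9 that reached a mean of 1 TPM, with summed levels of 783, 1138 and 2287 TPM, and Lyz2, their most abundant gene, had 194, 450 and 1209 TPM. No gene of either list was at 0 in all mice. The order mouse 1, mouse 2, mouse 3 held for 9 of 10 neutrophil genes and 6 of 9 monocyte genes, and for Cd209a and Siglech, against 9.93% of the 15181 genes. For Siglech mice 2 and 3 were nearly equal, at 3.55 and 3.78 TPM. The part of neutrophils or monocytes in the levels of Cd209a was not tested.

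Most B cell, T cell and tissue macrophage genes were low. The B cell list had a median level of 1.27 log2 units, with summed levels of 54.5, 97.5 and 132 TPM. Its defining gene Cd79a, a signalling chain of the B cell receptor, had a mean of 1.65 TPM, and Cd79b, the other chain, 13.1, 8.94 and 10.1 TPM. Ighm, an immunoglobulin heavy chain, was an exception, at 32.2, 76.8 and 108 TPM, most of the sum, with a mean of 72.2 TPM that is above those of Batf3 and Xcr1. The part of B cells in the results was not tested. The T and NK list had a median of 1.22 log2 units and summed levels of 191 to 207 TPM, of which Nkg7 and Klrk1 made up most. Nkg7 was a further exception, at 153, 101 and 143 TPM, with a mean of 133 TPM that is above that of Itgax. Klrk1 had 36.4, 67.6 and 35.4 TPM, and Cd3e had a mean of 0.653 TPM. The part of T and NK cells in the results was not tested. The tissue macrophage list had a median of 2.16 log2 units and summed levels of 42.3 to 54.0 TPM. Its defining gene Adgre1, listed as Emr1, had 12.7, 21.5 and 21.6 TPM, C1qa had a mean of 0.504 TPM, and Marco was listed at 0 in all 3 mice. Erythroid genes had a median of 3.39 log2 units, with summed levels of 50.5, 35.2 and 93.2 TPM. The 6 of 7 genes that reached a mean of 1 TPM were each highest in mouse 3, against 20.3% of the 15181 genes. The stroma and endothelium list had a median of 0.63 log2 units. The medians of these 5 lists stood below each of the 10 genes except Siglech, with the limit that Ptprc sets on reading low values. Cd209a and Ccr7 were nearest above them, at 4.18 and 4.24 log2 units. Siglech, at 2.15 log2 units, was below the erythroid and tissue macrophage medians.

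**Figure D4:**
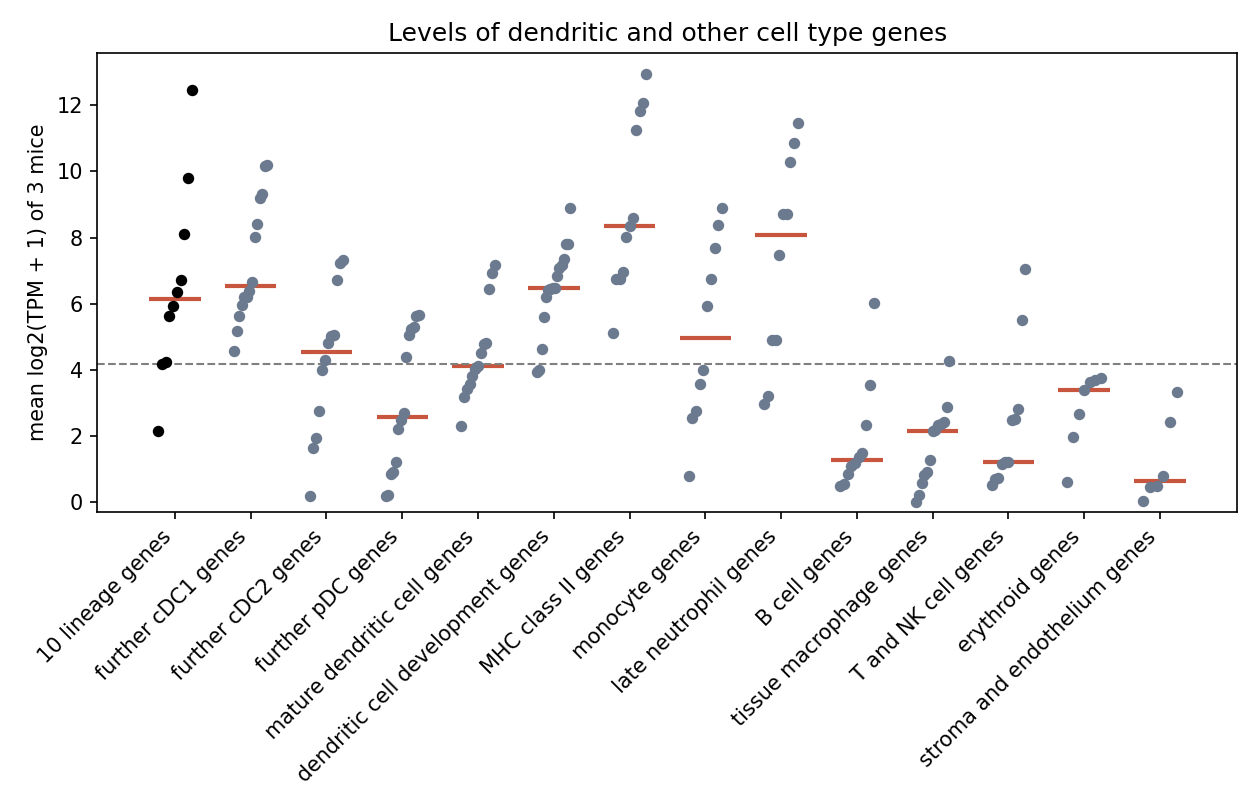
Mean log2(TPM + 1) of the 3 mice for each gene of the 10 lineage genes (black) and of 13 further lists (grey), with each list's median as a bar and the median of 4.18 over the 15181 genes as a dashed line. The medians of the 10 lineage genes and of the cDC1, cDC2, development, MHC class II, monocyte and late neutrophil lists lie above that line. Single genes such as Siglech lie below it. The pDC, mature, B cell, macrophage, T and NK, erythroid and stroma lists have medians below it. The list medians cover all listed genes, also those under 1 TPM, which the dashed line leaves out. Over the 11 pDC genes at a mean of 1 TPM or more, the median was 4.38 log2 units, above the line.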

How the data were processed

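The authors deposited 1 table of values per gene symbol. Its name calls them log2 FPKM, but the 3 columns used are linear, never negative and sum to 929731, 927169 and 928490, so the deposited values were read as TPM. The submitters' processing notes name kallisto and mm10, without a version, and how transcripts were combined per symbol is not given in the sources used here. One protocol names ribosomal depletion and another an mRNA kit. Columns were matched to mice by the mouse number in the titles. Another 3 columns of per-sample values belong to no sample of this series and were not used.

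Rows with no symbol (795) or a date for a symbol (27) were left out, which carried under 1% of each column, and 90 symbols on several rows were summed. Levels were put on log2(TPM + 1). A gene counted as detected at a mean of at least 1 TPM and as different between mice at 2-fold on TPM + 1. With 1 group no test was made. The 10 members and the 13 other lists (147 entries, all matched, older symbols through RefSeq synonyms) were chosen with earlier results of these data known. The named genes are the 10 members, from each other list the 3 highest and those with a mean of at least 10 TPM that differed 2-fold (lists of non-dendritic cells are mostly given by their sums), defining markers of other cells, and the 5 genes closest in profile to the widest member. Kit, Mpo, Cd34, Ptprc, Irf4, Cox6a2, Klk1, Pacsin1 and the Cd209 family were named after their values were seen. A marker that the rule names is not reported here. The fold and SD code was checked on simulated data. Python 3.11.15, numpy 2.4.6, pandas 2.3.3 and matplotlib 3.10.9 were used.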

Additional observations from a re-analysis of the deposited data

How the results depend on the processing

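No paired analysis was possible because all mice form a single group. The count of members that differed at least 2-fold between mice was 6 and ranged from 0 (without mouse 1) to 6 (without mouse 3) when a mouse was left out. It was 6 with a pseudocount of 0.1 and after upper-quartile scaling. It was also 6 without symbols on several rows, and with no filter or one at a mean of 5 TPM. Those last settings could not change it. Each member has 1 row and a mean of at least 1 TPM, and the 5 TPM filter left out only Siglech, at 1.18-fold. The median SD, 0.57, ran from 0.34 (without mouse 2) to 0.80 (without mouse 3) over pairs of mice. All 10 members were detected except at a threshold of 5 TPM, which Siglech missed. Of 60 recomputed member levels, 59 shifted by under 1 SD over mice. Siglech moved from 2.15 to 1.83 log2 units with a pseudocount of 0.1. Most of the 59 could not have failed, so they carry little weight. Leaving out 1 of 3 mice cannot shift a mean by 1 SD, and each member has 1 row. Upper-quartile scaling hardly shifts a mean over mice, so only the pseudocount could have moved a level this far. Of 78 recomputed list medians 72 shifted by under 1 SD, and of 78 recomputed counts of list genes with a 2-fold difference 52 kept within 1.5 times. Most of the moved counts came from leaving out a mouse. Of the 13 lists, 11 moved without mouse 1, 5 without mouse 2 and 7 without mouse 3. With a pseudocount of 0.1 the count moved for 2 lists, and after upper-quartile scaling for 1. Without symbols on several rows all 13 stayed. The alternatives for the orders of mice and, apart from leaving out symbols on several rows, for the other lists were chosen after seeing the data. Depth is unknown, so the counting error of low values such as those of Siglech cannot be stated.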

Other observations

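Cd209a has close relatives beside it in the genome, and reads can be shared among them. Cd209c was the highest of the family, at 30.3, 47.9 and 37.9 TPM in mice 1, 2 and 3, with mouse 2 highest as for Clec9a. Cd209d had 1.18, 2.01 and 3.63 TPM, in the order of Cd209a. Cd209b and Cd209e had means of 0.214 and 0.303 TPM, and Cd209f and Cd209g were listed at 0.

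The genes closest in profile to Cd209a, the member with the widest spread, were Zfand2a, Dnajb1, Dnase1l3, Ms4a4c and Ighm. Closeness was the root mean square difference of log2(TPM + 1) over the 3 mice after centring each gene, among 9506 genes with a mean of at least 10 TPM, and it ran from 0.0842 to 0.126 log2 units. Zfand2a and Dnajb1 are heat shock response genes, with 74.7, 211 and 251 TPM and 54.9, 177 and 247 TPM. Dnase1l3, a secreted nuclease of dendritic cells and macrophages, had 10.5, 38.4 and 47.5 TPM. The values rest on 3 mice and say nothing of shared function or control.

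The RefSeq window of Zbtb46 held the IRF half-site joined to an AP-1 site, on the opposite strand from position -61 to -51. That window was not shown because its start is that of 1 GENCODE M21 transcript of Zbtb46 and lies further inside 4 others. No factor binding was measured.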
